A study of Mus musculus with 59 samples.

Results

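The mouse nuclear genome carries, on chromosome 1, a row of 7 annotated pseudogenes that are near-identical copies of mitochondrial genes. They are Gm29216, Gm28661, Gm10925, Gm28437, Gm28438, Gm10222 and Gm28439, which copy mt-Co1, mt-Co2, mt-Atp6, mt-Co3, mt-Nd3, mt-Nd4l and mt-Nd4. The members were chosen by their symbols, 7 of 57180 gene rows in the count table, and all 7 passed the filter on low counts in every fit. They were selected on cortex results, since copies of this segment were higher in cortex libraries labelled Mrpl40 het. Values of that comparison are therefore given as a description with no test.

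Poly(A) RNA was sequenced from cortex and hippocampus of male mice that carry 1 or no altered copy of Slc25a1 and of Mrpl40. The first is a nuclear gene for the carrier that moves citrate out of mitochondria, and the second a nuclear gene for a large-subunit protein of the mitochondrial ribosome. The groups were wild type (Mrpl40 +/+, Slc25a1 +/+), Slc25a1 het (Slc25a1 -/+, Mrpl40 +/+), Mrpl40 het (Mrpl40 -/+, Slc25a1 +/+) and double het (heterozygous for both), with 9, 7, 7 and 7 cortex and 8, 7, 7 and 7 hippocampus libraries. There were 59 libraries from 30 animals, with both tissues sequenced in 29, and each library of a group is a separate animal. The sources used here do not state the strain, the age or the kind of allele.

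Library totals ranged from 21443017 to 32120906 counts. Slc25a1 went against the label in 6 animals (2 wild type, 2 Slc25a1 het and 2 double het), as judged by the gap in its cortex level. The level of Mrpl40 did not separate the groups: it was 15.9 to 20.4 CPM (counts scaled to the library's total) in wild-type cortex and 15.3 to 19.1 CPM in cortex labelled Mrpl40 het, and 13.4 to 17.5 CPM against 14.1 to 17.3 CPM in hippocampus. The sources used here do not state where the allele alters the gene. This level therefore does not check the label, and the groups are named throughout by their labels. In hippocampus, 3 libraries stood apart, with summed cerebellar markers (1 labelled Slc25a1 het) or choroid plexus markers (1 labelled Mrpl40 het and 1 labelled double het) over 2 times the tissue median.

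Mitochondrial DNA encodes 13 proteins, all of them subunits of the complexes that carry out oxidative phosphorylation, beside the ribosomal and transfer RNAs needed to translate them. Its transcripts are copied from both strands as long precursors, cut at the transfer RNAs and polyadenylated, so they enter poly(A) libraries. Pieces of mitochondrial DNA have moved into nuclear chromosomes during evolution, where they are not translated by the mitochondrial code. Sequencing reads from such a young copy and from the mitochondrial gene carry the same letters. The protein of Mrpl40 acts downstream of these transcripts, in the ribosome that translates them.

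The copies lie side by side on the minus strand of chromosome 1 between 24611535 and 24616197 (GRCm38, GENCODE vM21), a span of 4663 bases that holds 7 annotated genes, the copies themselves. All 7 are annotated as unprocessed pseudogenes. In the direction of transcription the order is Gm29216 (24615706 to 24616197), Gm28661 (24614885 to 24615565), Gm10925 (24613974 to 24614651), Gm28437 (24613189 to 24613971), Gm28438 (24612775 to 24613119), Gm10222 (24612407 to 24612700) and Gm28439 (24611535 to 24612410). This is the order of the genes on the mitochondrial genome, where the matching stretch runs from base 6390 to 11042. The first 5 copies are in register with it, and the last 2 are shifted by 1 base. Also within the stretch, mt-Atp8 and 5 transfer RNA genes have no annotated copy. Gm28439 and Gm10222 overlap by 4 bases, as mt-Nd4 and mt-Nd4l overlap by 7.

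Over their whole length Gm28661, Gm10925, Gm28437, Gm10222 and Gm28439 were identical to the mitochondrial gene, 3312 bases in all. Of the 1378 bases of mt-Nd4, Gm28439 holds the first 876. A read that lies within these 5 copies cannot be assigned by its letters to the nucleus or to the mitochondrion. The other 2 copies each differ from it by 1 base within the aligned part. They are shown because these bases are the only letters in the matched stretches that tell a copy from its mitochondrial gene. Positions are counted from 1 at the 5′ end of the mitochondrial gene, and the mitochondrial base stands first: the differences are T3C for Gm28438 against mt-Nd3 and A1066T for Gm29216 against mt-Co1. Capitals mark the differing base.
Gm28438: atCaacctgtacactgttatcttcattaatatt
mt-Nd3: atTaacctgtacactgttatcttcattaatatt
Gm29216: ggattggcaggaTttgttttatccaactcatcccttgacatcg
mt-Co1: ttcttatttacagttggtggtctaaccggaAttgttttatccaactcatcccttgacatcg

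The first 9 bases of Gm29216 have no match in the alignment, and its other 483 bases match the 3′ end of mt-Co1. Gm10222, the copy with the largest fold change against wild type in hippocampus, in both Mrpl40 het and double het, is shown whole, 294 bases identical to mt-Nd4l, with the start codon in capitals. It is followed by the first 60 bases of Gm28439, the copy of mt-Nd4, shown in the same way.
Gm10222: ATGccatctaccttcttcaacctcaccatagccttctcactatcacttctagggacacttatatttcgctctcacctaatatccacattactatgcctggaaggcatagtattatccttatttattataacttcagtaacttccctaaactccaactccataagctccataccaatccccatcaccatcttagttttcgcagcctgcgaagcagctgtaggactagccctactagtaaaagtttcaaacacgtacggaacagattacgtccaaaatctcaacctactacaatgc
Gm28439: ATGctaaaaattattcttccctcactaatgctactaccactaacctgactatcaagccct

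The mitochondrial genes have rows of their own in the table, and all 37 hold 0 counts in all 59 libraries. The 7 copies together took 0.647% to 1.09% of a library's counts. How reads that match several places were treated was not given in the sources used here. Whether the counts of a copy came from nuclear or from mitochondrial RNA cannot be told apart. Fewer cells of a type and less RNA per cell cannot be told apart in these bulk samples either.

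Levels of the copies were compared per length, as CPM per kilobase of row length. In wild-type cortex Gm10925, the copy of the ATP synthase subunit gene mt-Atp6, was highest at 3422 ± 199 CPM per kb (SD, n = 9). The copy of mt-Co2, Gm28661, followed at 2246 ± 120. Gm29216 (mt-Co1) at 1691 ± 92.9 and Gm28437 (mt-Co3) at 1647 ± 69.0 did not differ beyond their spread. Below them lay Gm28439 (mt-Nd4) at 996 ± 63.3, Gm10222 (mt-Nd4l) at 675 ± 48.6 and Gm28438 (mt-Nd3) at 274 ± 23.9 CPM per kb.

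Wild-type hippocampus gave the same order: 3804 ± 276 CPM per kb for Gm10925 (SD, n = 8), 2535 ± 246 for Gm28661, 1827 ± 184 for Gm29216, 1775 ± 97.9 for Gm28437, 1154 ± 94.3 for Gm28439, 733 ± 50.7 for Gm10222 and 301 ± 11.8 for Gm28438. All neighbours but Gm29216 and Gm28437 were in this order in 30 of 30 cortex and 29 of 29 hippocampus libraries, with wild-type ranges that did not overlap. Gm29216 was above Gm28437 in 22 of 30 cortex but in 10 of 29 hippocampus libraries. By wild-type mean, the 3 copies of cytochrome c oxidase genes and the copy of the ATP synthase gene lay above the 3 copies of complex I genes in both tissues. Gm10222 and Gm28438, the lowest per length, are also the shortest rows (294 and 345 bases). The part of row length in this order was not tested.

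**Figure D1:**
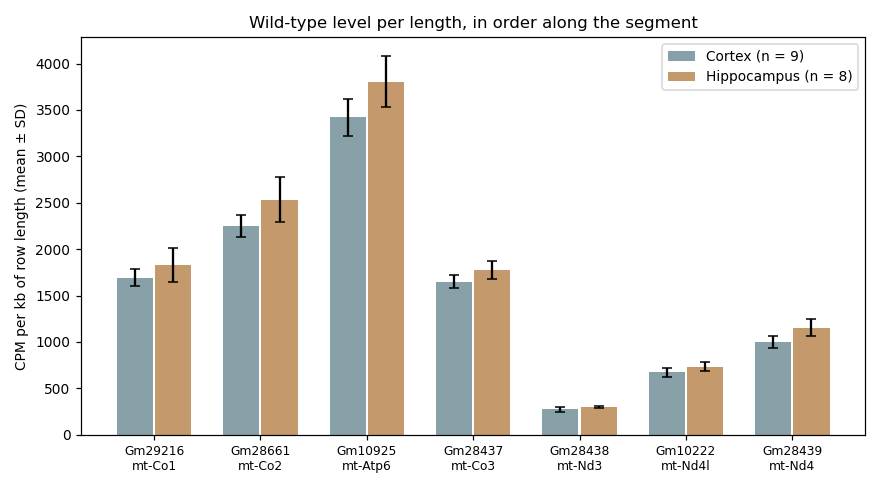
CPM per kb of row length (bars, mean; error bars, SD) of the 7 copies in wild-type cortex (n = 9) and hippocampus (n = 8), in their order along the segment. Gm10925 is highest (3422 and 3804 CPM per kb) and Gm28438 lowest (274 and 301) in both tissues.

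In cortex, where the members were selected, the copies were higher in libraries labelled Mrpl40 het than in wild type. Gm10222 had 180 to 229 CPM in wild type (median 194), 176 to 216 in Slc25a1 het (median 197), 232 to 265 in Mrpl40 het (median 250) and 209 to 257 in double het (median 236). All 7 Mrpl40 het libraries were above all 9 wild-type libraries, and 4 of 7 double het libraries were. Gm28439 had 798 to 958 CPM in wild type (median 861), 1015 to 1167 in Mrpl40 het (median 1102) and 936 to 1103 in double het (median 1016). All 7 Mrpl40 het and 6 of 7 double het libraries were above every wild-type library. Gm29216 had 758 to 916 CPM in wild type (median 839) and 857 to 973 in Mrpl40 het (median 924), and 5 of 7 Mrpl40 het libraries were above every wild-type library. The share of all genes that separate the groups as far is not given, so these counts of libraries are a description.

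As log2 fold changes against wild type in cortex labelled Mrpl40 het, the copies of complex I genes were higher by 0.32 ± 0.046 (SE; Gm10222), 0.32 ± 0.041 (Gm28439) and 0.29 ± 0.062 (Gm28438). Gm10925 was higher by 0.32 ± 0.041, and the copies of cytochrome c oxidase genes by 0.24 ± 0.042 (Gm28437), 0.22 ± 0.040 (Gm28661) and 0.15 ± 0.037 (Gm29216). The median was 0.29, against -0.0020 over all genes tested. Against the same wild-type libraries, double het was higher by 0.14 (Gm28437) to 0.24 (Gm10222), with a median of 0.22, against -0.0034 over all genes. Against the Slc25a1 het libraries, double het was higher by 0.11 (Gm29216) to 0.25 (Gm10222). In the comparison of Mrpl40 het with wild type, 0.0294% of the 20394 genes tested in cortex passed the threshold in either direction (adjusted p under 0.05 by edgeR's quasi-likelihood test with Benjamini-Hochberg adjustment). That comparison chose the copies, so their place in it is no finding. In it 11 of 12 neuron markers were higher in sign (median log2 fold change 0.064), while 11 of 12 astrocyte markers (-0.072) and 12 of 12 microglia markers (-0.089) were lower. Oligodendrocyte markers were higher in 11 of 12 (0.29), and endothelial and pericyte markers (11 of 12, -0.11), fibroblast and meningeal markers (10 of 10, -0.33) and cerebellar markers (8 of 10, -0.20) were lower. None of these genes was called, and their part in the values of the copies was not tested.

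**Figure D2:**
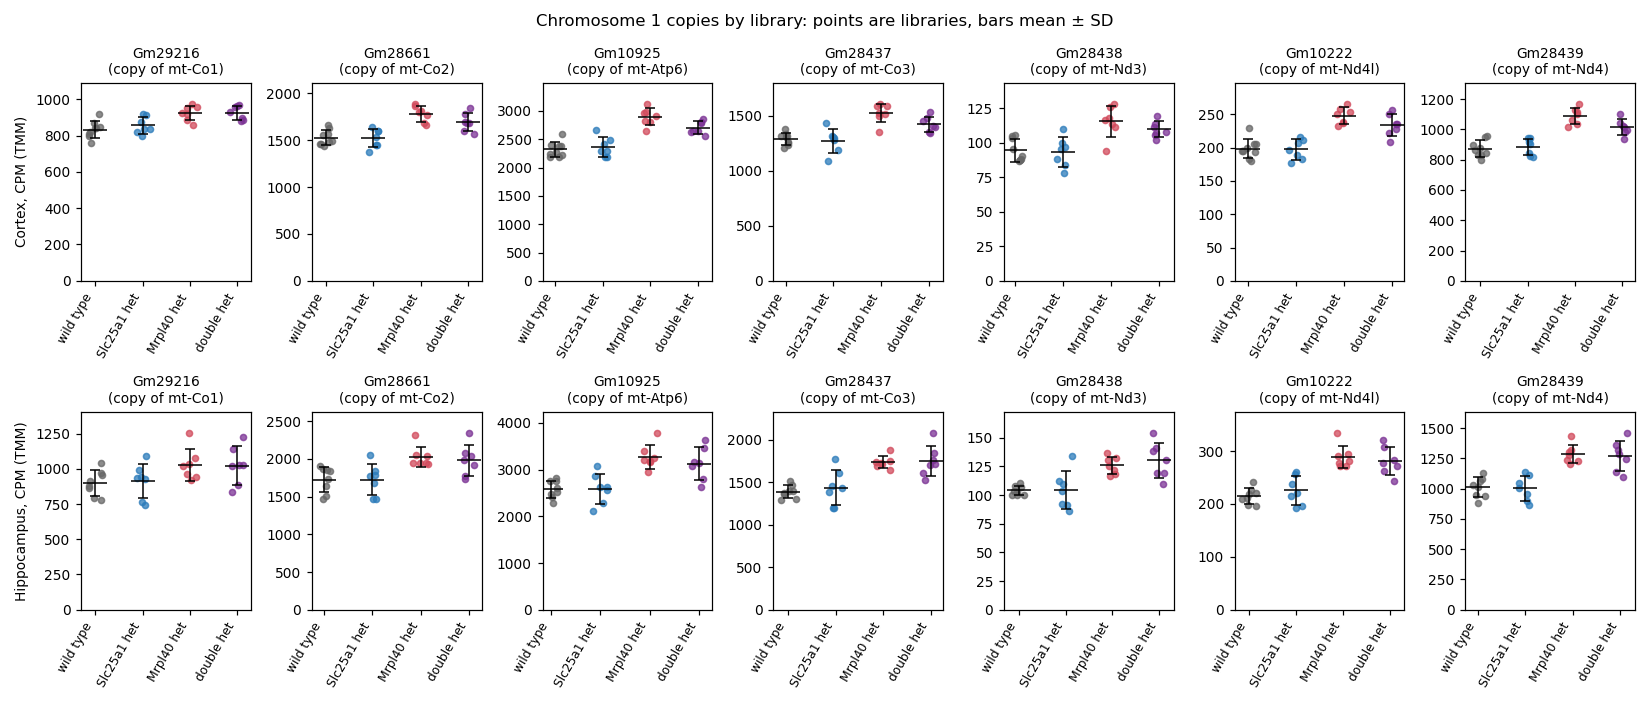
CPM of each copy in every library (points) by genotype, with mean ± SD (black), in cortex (top) and hippocampus (bottom). In both tissues the means of Mrpl40 het and double het lie above those of wild type and Slc25a1 het for each copy, with overlapping points in several panels.

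Under the Slc25a1 label alone no difference in the copies was detected. In cortex the log2 fold changes of Slc25a1 het against wild type ran from -0.019 (Gm28438) to 0.042 (Gm29216), 0 of 7 passed (edgeR adjusted p of 1 for each), and their 95% intervals together spanned -0.14 to 0.11. These libraries are compared with the wild-type libraries that also entered the choice of the members. The background was 0% of 20394 genes called, with 646 at an unadjusted p under 0.05, none of them a copy (smallest unadjusted p 0.264). In hippocampus the fold changes ran from -0.013 (Gm28439) to 0.066 (Gm10222), 0 of 7 passed (edgeR adjusted p from 0.832 to 0.999), and the intervals spanned -0.14 to 0.19. There too 0% of 20162 genes were called, with 1567 at an unadjusted p under 0.05 and again no copy among them. By DESeq2 no copy passed in either tissue, and 0 genes were called. The level of Slc25a1 disagrees with the label in animals 6 and 7 (wild type) and 12 and 13 (Slc25a1 het). The intervals therefore describe the labels and not the measured level of Slc25a1. Without the 6 animals in which the level disagrees, again 0 of 7 passed in either tissue, with 1 gene called in each.

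The members were selected on cortex results and not on hippocampus values, but earlier results of these data were known when they were chosen. The hippocampus libraries also come from the same animals as the cortex libraries. The log2 fold changes of all 7 copies were again above 0 in both groups labelled heterozygous for Mrpl40. Pooled in 1 contrast, both Mrpl40 het groups (Mrpl40 het and double het, n = 14) against both groups labelled Mrpl40 +/+ (wild type and Slc25a1 het, n = 15), 5 of 7 copies rose by edgeR's test, against a background of 0.0595% of 20162 genes called higher (12 genes) and 0.109% called in either direction (22 genes). The median log2 fold change was 0.30, against -0.0098 over all genes tested. Gm10222 and Gm28439 had the smallest p of all genes in this contrast. The same 5 passed in all 29 fits that leave out 1 library, for which the calls over all genes are not given. Without the 6 animals whose Slc25a1 disagrees with the label 2 of 7 passed, Gm10222 (0.34) and Gm28439 (0.33), each with an edgeR adjusted p of 0.0247. In the fit without these animals 2 of 20347 genes were called higher and 3 in either direction.

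Among the copies of complex I genes, which encode subunits of NADH dehydrogenase, Gm10222 had 197 to 242 CPM in wild-type hippocampus (median 215), 192 to 260 in Slc25a1 het (median 221), 272 to 334 in Mrpl40 het (median 281) and 243 to 320 in double het (median 278). All 7 Mrpl40 het and all 7 double het libraries were above all 8 wild-type libraries, and 13 of these 14 were also above all Slc25a1 het libraries. Here and for the copies below, the share of all genes with such a separation is not given, so these counts are a description. In the pooled contrast it rose by 0.37 ± 0.046 (SE, log2), which is 1.29-fold, with an edgeR adjusted p of 8.3e-05. Gm28439 had 882 to 1131 CPM in wild type (median 1020), 865 to 1138 in Slc25a1 het (median 1008), 1206 to 1434 in Mrpl40 het (median 1278) and 1099 to 1459 in double het (median 1287). It rose by 0.35 ± 0.046 (edgeR adjusted p 0.000156), and 13 of 14 libraries were above every library labelled Mrpl40 +/+. Gm28438, the lowest of the 7 in level, had 99.7 to 111 CPM in wild type (median 103), 85.9 to 134 in Slc25a1 het (median 104), 117 to 137 in Mrpl40 het (median 126) and 110 to 154 in double het (median 131). It rose by 0.30 ± 0.051 (edgeR adjusted p 0.00569), with 4 of 14 libraries above every library labelled Mrpl40 +/+.

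The copy of the ATP synthase gene, Gm10925, whose mitochondrial counterpart encodes a subunit of the proton channel, had 2292 to 2825 CPM in wild type (median 2564), 2120 to 3072 in Slc25a1 het (median 2618), 2958 to 3785 in Mrpl40 het (median 3212) and 2626 to 3630 in double het (median 3140). It rose by 0.31 ± 0.052 (edgeR adjusted p 0.00479) in the pooled contrast. All 7 Mrpl40 het and 5 of 7 double het libraries were above every wild-type library, and 10 of the 14 libraries of these groups were above every library of wild type and Slc25a1 het.

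Of the copies of cytochrome c oxidase genes, which encode the catalytic core of complex IV, Gm28437 passed and the other two did not. Gm28437 had 1295 to 1518 CPM in wild type (median 1387), 1193 to 1776 in Slc25a1 het (median 1436), 1646 to 1879 in Mrpl40 het (median 1724) and 1526 to 2080 in double het (median 1714). It rose by 0.30 ± 0.049 (edgeR adjusted p 0.00302), and all 14 libraries labelled Mrpl40 het or double het were above all 8 wild-type libraries, but 3 of 14 were above every library of wild type and Slc25a1 het. Gm28661 had 1473 to 1902 CPM in wild type (median 1789), 1471 to 2048 in Slc25a1 het (median 1768), 1930 to 2318 in Mrpl40 het (median 1948) and 1728 to 2344 in double het (median 1981), with a log2 fold change of 0.22 ± 0.051 in the pooled contrast (edgeR adjusted p 0.0778). Gm29216 had 775 to 1044 CPM in wild type (median 896), 743 to 1091 in Slc25a1 het (median 935), 921 to 1254 in Mrpl40 het (median 1022) and 832 to 1227 in double het (median 1026), with 0.18 ± 0.060 (edgeR adjusted p 0.201). For Gm29216, 2 of 7 Mrpl40 het and 2 of 7 double het libraries were above every wild-type library.

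Split by group, fewer copies passed. In hippocampus labelled Mrpl40 het against wild type, log2 fold changes ran from 0.20 ± 0.084 (Gm29216) to 0.42 ± 0.064 (Gm10222), and 1 of 7 passed: Gm10222, with an edgeR adjusted p of 0.00421 and a fold of 1.34. It was the one gene called higher among all tested, 0.00496%. Gm28439 stood at 0.35 ± 0.064 (edgeR adjusted p 0.0581), Gm10925 at 0.35 ± 0.072 (0.117) and Gm28437 at 0.32 ± 0.068 (0.121). Without the 6 animals in which Slc25a1 disagrees with the label, Gm10222 kept its size (0.42) but not the call (edgeR adjusted p 0.0804). In that fit 0 of 20347 genes were called higher.

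In double het against the same wild-type libraries the values ran from 0.19 ± 0.084 (Gm29216) to 0.38 ± 0.064 (Gm10222), and again Gm10222 alone passed (edgeR adjusted p 0.0256, fold 1.30), against 0.00992% of genes called higher (2 genes, the other being Gm13340, described further on). That call held in 4 of 15 fits that leave out 1 library, with adjusted p up to 0.15. It was lost without wild-type replicate 2, 3, 6, 7, 8 or 9 or without double het replicate 1, 3, 4, 5 or 6. It was also lost without the same 6 animals (log2 fold change 0.35, edgeR adjusted p 0.671) and without the 3 libraries set apart by cerebellar or choroid plexus markers (0.39, edgeR adjusted p 0.0923). Without these animals, as without these libraries, 0 genes were called higher.

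Double het against Slc25a1 het asks for the Mrpl40 label between groups that are both labelled Slc25a1 het. The level of Slc25a1 disagrees with that label in 2 animals of each group. The log2 fold changes ran from 0.16 ± 0.087 (Gm29216) to 0.34 ± 0.066 (Gm28439), with a median of 0.28. None of the 7 passed edgeR's test (adjusted p from 0.201 to 0.572), and 0% of genes did, with 1822 at an unadjusted p under 0.05. Of the copies, all but Gm29216 (unadjusted p 0.0723) were among these 1822. Without the animals in which Slc25a1 disagrees with the label the values ran from 0.11 (Gm29216) to 0.29 (Gm28439), and again 0 of 7 passed (edgeR adjusted p from 0.632 to 0.838). In that fit 0 of 20347 genes were called. Leaving out Slc25a1 het replicate 1 gave 2 calls, and leaving out Slc25a1 het replicate 7 or double het replicate 2 gave 1 each. The calls over all genes in these fits are not given.

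DESeq2's Wald test, run on the same counts, called more. It passed 4 of 7 copies in hippocampus labelled Mrpl40 het (0.0298% of genes called higher), 4 of 7 in double het (0.0248%), 3 of 7 in double het against Slc25a1 het (0.0446%) and 7 of 7 in the pooled contrast, where it called 1.21% of genes higher.

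**Figure D3:**
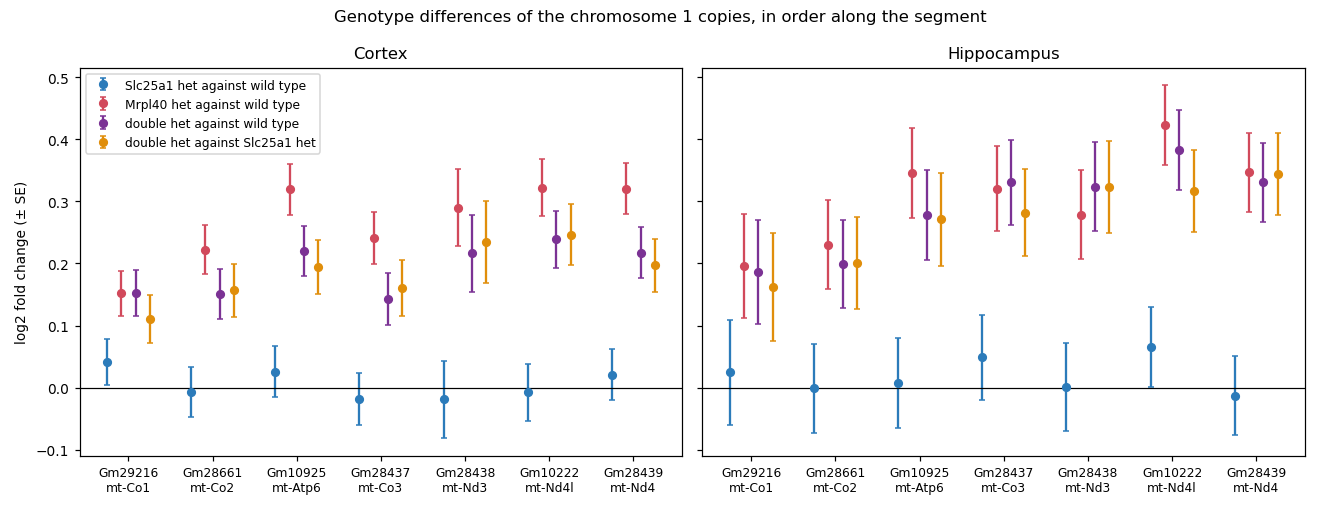
Log2 fold change (± SE) of each copy in 4 genotype comparisons, in cortex (left) and hippocampus (right), with the copies in their order along the segment. The values of Slc25a1 het lie around 0, and those of the other comparisons run from 0.11 to 0.32 in cortex and from 0.16 to 0.42 in hippocampus; the cortex values chose the copies and carry no test.

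The size of the difference between genotypes was also compared among the copies within a library, since a ratio of 2 counts from the same library does not depend on its scaling. The reference was Gm29216, at the upstream end of the segment. In hippocampus it had the smallest log2 fold change of the copies against wild type, 0.20 in Mrpl40 het and 0.19 in double het. Ratios to it in these groups therefore restate the fold changes, and their positive sign is no separate evidence. Relative to Gm29216, the count of Gm10222 in hippocampus labelled Mrpl40 het was higher than in wild type by 0.23 (log2, difference of group means). In double het this difference was 0.20. For Gm28439 these differences were 0.15 and 0.15, for Gm10925 0.15 and 0.092, for Gm28437 0.13 and 0.14, and for Gm28438 0.082 and 0.14. For Gm28661, the next copy along the segment from Gm29216, they were 0.038 and 0.017. In Slc25a1 het, the same differences ran from -0.035 (Gm28439) to 0.040 (Gm10222). In cortex, where the values chose the copies, the differences for Mrpl40 het ran from 0.070 (Gm28661) to 0.17 (Gm10222), and those for double het from -0.012 (Gm28437) to 0.085 (Gm10222).

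The share of Gm29216 in the summed counts of the 7 was 11.3% ± 0.42 in wild-type hippocampus (SD, n = 8), and 11.4% ± 0.35, 10.5% ± 0.52 and 10.7% ± 0.33 in Slc25a1 het, Mrpl40 het and double het (SD, n = 7 each). The share of Gm10222 was 2.73% ± 0.19, 2.82% ± 0.087, 2.96% ± 0.071 and 2.94% ± 0.083 in the same order. These ratios and shares restate the fold changes of the copies. They were looked at after the fold changes were seen, and no test was made of them.

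**Figure D4:**
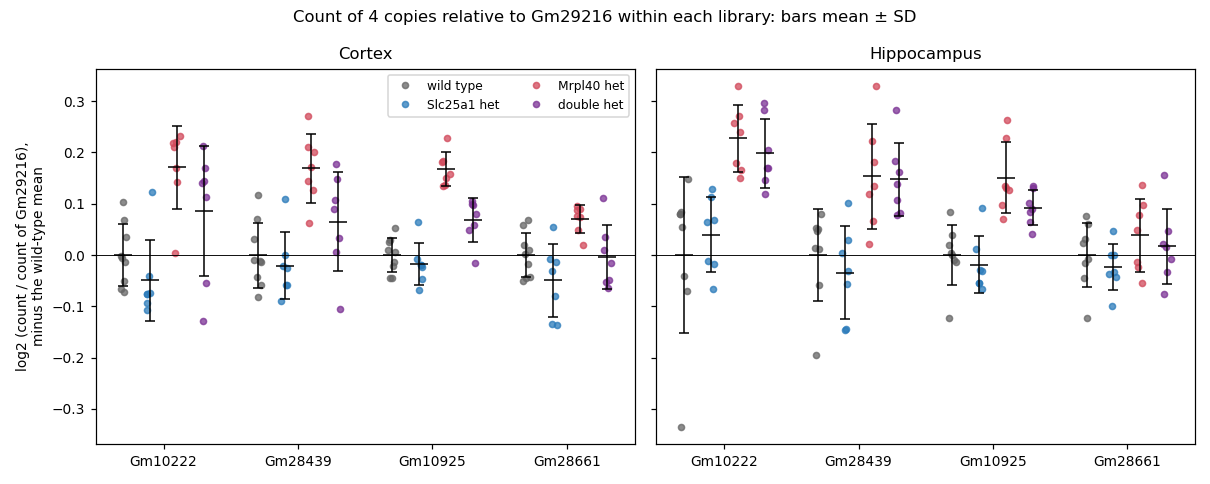
Log2 ratio of the count of 4 copies to that of Gm29216 in the same library, minus the wild-type mean, by genotype (points, libraries; black, mean ± SD), in cortex and hippocampus. The Mrpl40 het mean for Gm10222 lies 0.17 above wild type in cortex and 0.23 in hippocampus, and that for Gm28661 0.070 and 0.038. In Mrpl40 het against wild type Gm29216 had the smallest log2 fold change of the copies, 0.15 in cortex and 0.20 in hippocampus.

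Within wild type, hippocampus was compared with cortex in the 8 animals that gave both tissues, with the animal as a block. Of the 7 copies 3 rose, against a background of 29.8% of 21403 genes called higher, so the share of copies is not far from that of all genes. Gm28439 rose by 0.17 ± 0.047 (SE, log2; edgeR adjusted p 0.00595), from 897 ± 51.7 CPM in cortex to 1007 ± 82.4 CPM in hippocampus (SD, n = 8), and was higher in 7 of 8 animals. Gm28661 rose by 0.13 ± 0.050 (edgeR adjusted p 0.0357; higher in 6 of 8) and Gm28438 by 0.10 ± 0.042 (edgeR adjusted p 0.0428; higher in 6 of 8). The other copies stood at 0.070 to 0.11, with edgeR adjusted p from 0.0612 to 0.26. Left out 1 at a time, animals 2, 3, 4 and 5 each left 1 call, that of Gm28439, which passed in 8 of 8 such fits.

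No relation between the 2 tissues of an animal was detected. Over 29 animals, with log2 CPM centred on the group mean, Pearson's r between the tissues ran from -0.34 (Gm28437) to 0.148 (Gm28438) and Spearman's rho from -0.328 (Gm28437) to 0.226 (Gm28438). Over 7 relations computed, the two-sided permutation p (100000 resamples within genotype) was from 0.165 to 0.845 for r and from 0.109 to 0.995 for rho, so none would pass an adjustment. Without the 2 animals farthest from the cortex median r ran from -0.319 to 0.183.

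Inside a genotype the 7 copies varied together. Over 30 cortex libraries, centred on the genotype mean, the 21 pairs of copies had correlations of 0.499 to 0.889 (median 0.72), and over 29 hippocampus libraries of 0.666 to 0.955 (median 0.869). The points of a pair share library, depth and scaling. The same libraries differed in glial markers. The summed CPM of 12 astrocyte markers, among them Slc1a3, Aqp4 and Gja1, had a correlation with the mean of the 7 copies of 0.739 in cortex and 0.774 in hippocampus, and the sum of 12 microglia markers one of 0.778 and 0.87. For 12 endothelial and pericyte markers it was 0.667 and 0.705, and for 12 neuron markers it was -0.663 in cortex and -0.132 in hippocampus. Lists other than cell types also varied with the copies. In cortex and hippocampus, genes of mitochondrial RNA synthesis and processing stood at -0.525 and -0.546, and blood markers at 0.3 and 0.578. Nuclear subunits of complex IV stood at 0.0376 and 0.558, those of complex I at -0.0828 and 0.414, and those of ATP synthase at -0.285 and 0.2. All these correlations pool the genotypes.

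In hippocampus the astrocyte sum was 5466 to 6854 CPM in wild type (median 6071), 5585 to 7572 in Slc25a1 het (median 6845), 5046 to 6236 in Mrpl40 het (median 5762) and 5449 to 6837 in double het (median 5937). The microglia sum had medians of 480, 513, 457 and 450 CPM in that order. In the pooled contrast all 12 astrocyte and all 12 microglia markers were lower in sign, with none called, and median log2 fold changes of -0.11 and -0.085. All 12 endothelial and pericyte (-0.078), all 10 cerebellar (-0.80) and 9 of 10 fibroblast and meningeal markers (-0.13) were also lower in sign, while 7 of 8 choroid plexus markers (0.36), 11 of 12 immediate early genes (0.23) and 9 of 12 oligodendrocyte markers (0.045) were higher, none called. The neuron sum had medians of 8441, 7848, 8836 and 8612 CPM, and 10 of 12 neuron markers were higher in sign, none called, with a median of 0.14. In double het against Slc25a1 het all 12 were, with a median of 0.19. The part of these lists in the values of the copies was not tested. The fit with the astrocyte sum and the fits without the 3 libraries set apart by cerebellar or choroid plexus markers show only how the calls moved. Oligodendrocyte medians were 2971, 3159, 2923 and 3400 CPM.

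With the astrocyte sum as a covariate, a fit chosen after seeing the data, 6 of 7 copies passed in hippocampus labelled Mrpl40 het (0.0337% of genes called higher), 5 of 7 in double het (0.0289%), 6 of 7 in double het against Slc25a1 het (0.0385%) and 7 of 7 in the pooled contrast (0.053%). In that fit Gm10222 stood at 0.42 in double het against Slc25a1 het (edgeR adjusted p 8.49e-05) and Gm29216 at 0.30 in the pooled contrast (edgeR adjusted p 0.00148). The astrocyte sum itself varied with the copies (r of 0.774) and had lower medians in both Mrpl40 het groups. The fit is therefore no test of the part of astrocytes, and no fit used the microglia sum.

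**Figure D5:**
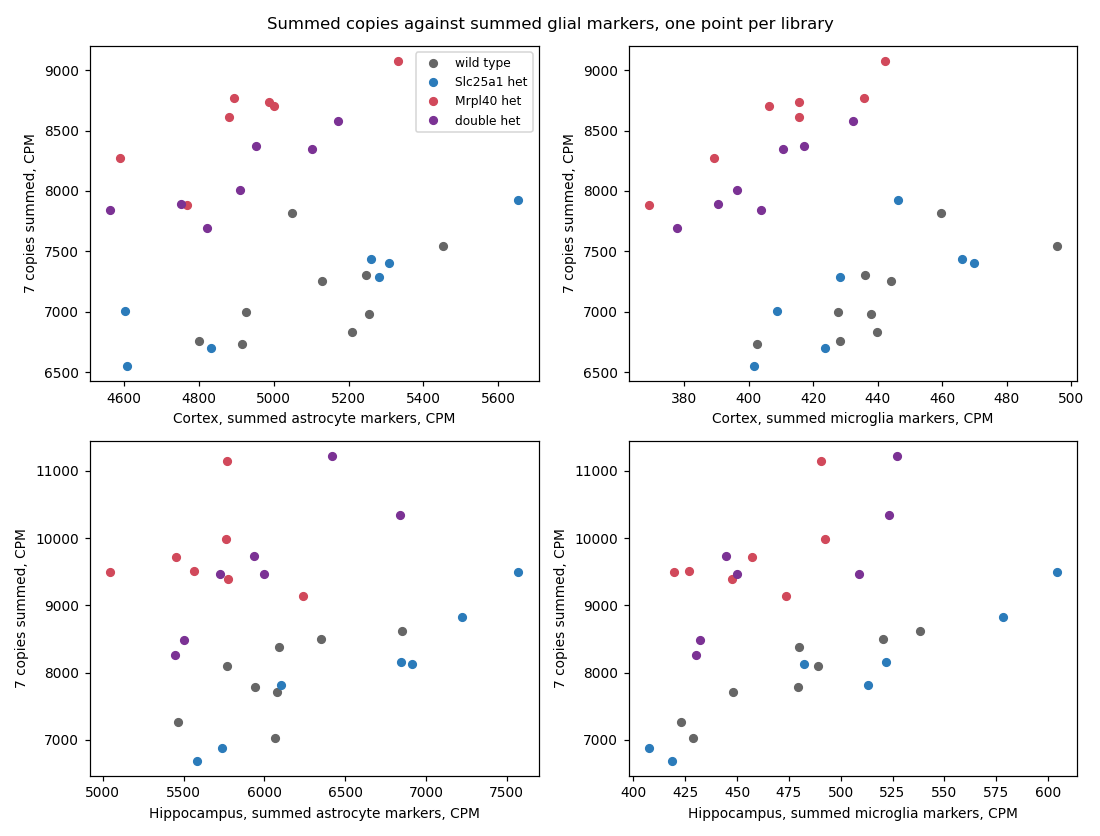
Summed CPM of the 7 copies against the summed CPM of 12 astrocyte (left) or 12 microglia markers (right), 1 point per library, coloured by genotype, in cortex (top) and hippocampus (bottom). With all genotypes centred on their means the relation runs upward in each panel, but the points do not run upward within every genotype. In hippocampus labelled Mrpl40 het, the library with the highest astrocyte sum (6236 CPM) has the lowest sum of the copies (9135 CPM). The points labelled Mrpl40 het and double het mostly lie above those of the other groups at the same marker level.

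The genes most like the copies, by the correlation of genotype-centred log2 CPM with the mean of the 7, were Tmem176b (0.775), Slc1a3 (0.757), Clu (0.756), Cyp4f14 (0.749) and Dbt (0.742) over 30 cortex libraries. Slc1a3 encodes the astrocytic glutamate transporter, Clu the secreted chaperone clusterin and Dbt a subunit of the mitochondrial complex that breaks down branched-chain amino acids. Over 29 hippocampus libraries they were Dazap2 (0.867), P2ry12 (0.866), Cst3 (0.866), Slc38a3 (0.864) and Itgam (0.86). P2ry12 is a purine receptor of microglia, Itgam an integrin of microglia and other myeloid cells, Cst3 the protease inhibitor cystatin C and Slc38a3 a glutamine transporter. The lists shared no gene. In hippocampus the cortex genes Slc1a3, Clu and Cyp4f14 were at 0.689 to 0.719, and Tmem176b and Dbt at 0.296 and 0.305. In cortex the hippocampus genes were at 0.292 (Dazap2) to 0.617 (Cst3).

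Away from this segment, 4 other annotated pseudogenes matched a mitochondrial gene at 95.2% to 97.6% identity over at least 200 bases. They copy mt-Co1, mt-Co2, mt-Nd2 and mt-Nd5, and the one with most counts, Gm13340, copies mt-Co1 over its whole 1545 bases with 37 mismatches. Gm13340 had 191 to 337 CPM over the hippocampus libraries, and the other 3 had 1.85 to 9.76 CPM. In the pooled hippocampus contrast 3 of these 4 passed edgeR's test. Gm13340 rose by 0.33 ± 0.052 (edgeR adjusted p 0.00224). Gm4076 rose by 0.42 ± 0.074 (edgeR adjusted p 0.00746) and Gm13341 by 0.39 ± 0.083 (0.0493), while Gm13339 stood at 0.35 ± 0.083 (0.0708). These fold changes lay within or above the range of the chromosome 1 copies, 0.18 to 0.37. The chromosome 1 counterpart of Gm13340, Gm29216, which matches only 483 bases at the 3′ end of mt-Co1, stood at 0.18 ± 0.060. Gm13340 was singled out after its values were seen. Of the 12 genes called higher in that contrast, 8 were copies of mitochondrial genes, 5 of them from the chromosome 1 segment.

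Lists of nuclear genes whose proteins join the products of the mitochondrial genes, or make and process mitochondrial RNA, were counted in the same comparisons. With 0.00496% of all genes called higher in hippocampus labelled Mrpl40 het, 0.0595% in the pooled contrast and 0.0294% called in either direction in cortex, nothing is read from a count of 0. In hippocampus labelled Mrpl40 het, 0 of 36 measured nuclear subunits of complex I, 0 of 15 of complex IV, 0 of 16 of ATP synthase and 0 of 38 genes of mitochondrial RNA synthesis and processing passed edgeR's test, as did 0 of each in the pooled contrast and in cortex labelled Mrpl40 het. The median log2 fold changes in hippocampus labelled Mrpl40 het were -0.020, -0.050, -0.00097 and 0.025, against -0.0070 over all genes. The smallest p of each list in that comparison belonged to Ndufb10 of complex I (-0.11 ± 0.036, edgeR adjusted p 0.587), Cox6c of complex IV (-0.089 ± 0.044, 0.608), Atp5j of ATP synthase (-0.11 ± 0.036, 0.587) and Mterf3 of the mitochondrial transcription termination factor family (-0.11 ± 0.052, 0.606).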

How the data were processed

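The members and the gene lists were chosen with earlier results of these data known. The authors' raw count table has a row per gene and a column per library, as deposited. The deposited normalized counts, treated as a signal, are these counts divided by 1 factor per library within each tissue. The submitters' processing notes name FastQC, HISAT2, featureCounts and DESeq2 and the builds mm39 and GRCm39, with no versions or settings. Positions and sequences of the copies are from GENCODE vM21 (GRCm38), read by transcript; copies were found with blastn 2.17.0.

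Counts were fitted per tissue over all 4 genotypes with edgeR 4.0.16 (quasi-likelihood test, TMM, its filter on low counts, robust dispersion) in R 4.3.3, with p-values adjusted over all genes tested and a threshold of 0.05. The SE is the log2 fold change divided by the root of the F statistic. Log2 CPM used a prior count of 2. Wild-type tissues were compared with the animal as a block, since the labels give both tissues of an animal the same number. Over all genes, group-centred values of the 2 tissues correlated at 0.0231 to 0.159 within the 8 animals, against a median of -0.0176 between animals. The best match was the library of the same animal in 7 of these 8, but in 15 of 29 animals over all genotypes.

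Named were all 7 copies, the 4 other copies, the 5 genes per tissue most like the mean of the 7, and from each list of nuclear mitochondrial genes the gene with the smallest p. Of the marker lists, Slc1a3, Aqp4 and Gja1 were named as examples and C1qa because it was called. Alternatives were DESeq2 1.42.0 (size factors and Wald test), limma 3.58.1 on log2 of the deposited values plus 1, totals without the copies, no filter, only the groups compared, the replicate number as a block, and libraries left out; the astrocyte covariate was added after seeing the data. The scripts were tested on simulated data. Library totals set the counting error, and intervals are 95% normal intervals from the SE.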

Additional observations from a re-analysis of the deposited data

Results flagged for a closer look

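Over the 56 combinations of copy, tissue and genotype, 3 had a library far from the rest of its group, where chance flags about 1 in 20. In hippocampus labelled Mrpl40 het, animal 21 was highest for Gm28661 at 2318 CPM, with the next library at 2054, and for Gm10222 at 334.2 CPM, with the next at 293.6. Without 1 library at a time Gm10222 passed in 15 of 15 fits of that comparison, with log2 fold changes of 0.387 to 0.449. In cortex labelled Mrpl40 het, animal 20 was lowest for Gm28437 at 1356 CPM, with the next at 1498.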

How the results depend on the processing

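In hippocampus each copy kept its direction in each comparison of the 2 Mrpl40 het groups, under all alternatives run, while the number that passed moved. A number in brackets is the count of genes called higher among the 19177 to 41378 tested in a fit. For Mrpl40 het against wild type 1 copy passed (1). With DESeq2 size factors it was 2 (2), with no filter 2 (2) and with the deposited normalized counts 2 (3). DESeq2's Wald test gave 4 (6), only the groups compared 5 (6) and the astrocyte covariate 6 (7). Without the 6 animals in which Slc25a1 disagrees with its label 0 passed (0). Leaving out 1 library gave 1 to 2. For double het against wild type 1 passed (2), with 4 by DESeq2's Wald test (5) and 5 with the covariate (6). It was 0 without those animals (0) and 0 without the 3 libraries set apart by cerebellar or choroid plexus markers (0). Leaving out 1 library gave 0 to 2. For double het against Slc25a1 het 0 passed (0), with 3 by DESeq2's Wald test (9) and 6 with the covariate (8). Leaving out 1 library gave 0 to 2 there. In the pooled contrast 5 passed (12), and 2 without those animals (2), Gm10222 and Gm28439. With 1 library left out it was 5 to 6. In that contrast DESeq2 called 243 genes higher against 12 by edgeR. Between tissues 3 passed (6378), the fit without the animal block gave 3 (6002), and leaving out 1 animal gave 1 to 4. The genes called in fits that leave out 1 library or animal are not given, so those counts are a description. The deposited normalized counts were not run between tissues, which the authors normalized separately. The cortex medians ranged from 0.29 to 0.339 (Mrpl40 het) and from 0.212 to 0.263 (double het), or 0.264 to 0.333 and 0.196 to 0.236 without 1 library. The cause of these shifts was not tested.

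With the replicate number as a block, 0 copies passed for Mrpl40 het (0 of 22515 genes called higher) and 0 for double het (0 genes). For double het against Slc25a1 het 1 passed (7 genes), and 4 did in the pooled contrast (10 genes). Libraries that share a number across genotypes are from different animals. Same-numbered libraries had correlations of -0.127 to 0.18 in hippocampus and -0.122 to 0.183 in cortex, and 4 of 29 and 6 of 30 libraries correlated best with their own number. How many would do so by chance is not given, so these counts do not decide whether the number marks anything shared.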
